A study of Homo sapiens with 4 samples.

Results

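The genes described here encode parts of the TGF-beta and bone morphogenetic protein (BMP) pathways. They comprised 10 members chosen by name, namely the ligand genes *TGFB1* and *TGFB2*, the receptor genes *TGFBR2*, *TGFBR1* and *BMPR1B*, the intracellular mediator genes *SMAD3* and *SMAD7*, and *ID1*, *ID2* and *ID3*, which encode inhibitors of differentiation factors. All 10 were among the 20332 genes of the count table, and all 10 passed the filter on low counts that left 13744 genes for testing. RNA-seq was compared between parental LNCaP cells, an androgen-dependent human prostate cancer line labelled WT (2 libraries), and the subline LN-35, labelled LNCaP-resistance and treated with enzalutamide (2 libraries). Enzalutamide is a drug that blocks the androgen receptor. The study derived LN-35 from LNCaP by stepwise dose escalation in charcoal-stripped serum, while the labels give 1 serum-containing medium for both lines, so drug, serum and long-term selection cannot be told apart. Whether a line's libraries came from separate cultures is not stated in the labels, so the p-values rest on differences among 4 libraries that may be technical repeats. In bulk RNA, fewer cells with a transcript and less of it per cell cannot be told apart.

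Most ligands of the TGF-beta superfamily bring together type II and type I receptor kinases. The activated type I receptor phosphorylates receptor-regulated SMAD proteins, which join SMAD4 and enter the nucleus. TGF-beta and activins act mainly through SMAD2 and SMAD3, and BMPs through SMAD1, SMAD5 and SMAD9. The *ID* genes are immediate targets of BMP signaling. ID proteins lack a DNA-binding region, and they hold back lineage factors of the basic helix-loop-helix class by capturing their E protein partners. In prostate epithelium TGF-beta is known to restrain growth of normal cells, and LNCaP cells are known as poorly responsive to it.

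Library totals were 12225173 to 15333722 estimated counts. The labelled tissue was checked with 11 luminal epithelial markers, all of which were tested, with 2 higher and 9 lower in LN-35. Their summed level was 4222 and 4330 CPM (TMM-normalized counts per 1e6 counts) in LNCaP and 3619 and 3612 CPM in LN-35. Fibroblast markers summed to 45.5 and 37.1 CPM in LNCaP against 47.3 and 44.99 CPM in LN-35, and most of each sum was *COL1A1*, at 44.4 and 35.6 CPM against 37.2 and 30.5 CPM (not called). Of the other markers *COL3A1* was 4.31-fold and *LUM* 4.33-fold higher in LN-35, from 5 to 10 counts per LNCaP library, and *DCN* had 0 counts in LNCaP against 78 and 119 in LN-35. Of the 4 fibroblast markers tested, 3 passed the filter only through LN-35. *FAP* had 0 counts in each library and *PDGFRA* and *COL1A2* had 0 to 2. Leukocyte markers summed to 146 and 154 CPM against 14.4 and 18.8 CPM, and endothelial markers to 5.65 and 6.67 against 0.417 and 0.805 CPM. Most of the leukocyte sum in LNCaP was *LCP1*, with 135 and 142 CPM there against 4.66 and 5.55 CPM in LN-35. In LN-35 the largest part was *CD68*, at 9.46 and 11.9 CPM in LNCaP against 7.83 and 10.9 CPM in LN-35 (not called). Most of the endothelial sum in both lines was *VWF*, with 5.52 and 6.67 CPM against 0.333 and 0.724 CPM. *PTPRC*, the defining leukocyte gene, had 0 to 5 counts per library and the endothelial gene *CDH5* had none. The share of mitochondrially encoded transcripts was 9.53% and 9.39% of the LNCaP totals against 13.8% and 14.78% of the LN-35 totals.

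Of the 10 members, 9 were higher in LN-35 and 1, *TGFBR1*, was lower. Across all tested genes 36.4% were called higher and 35.5% lower, 71.8% in all, by edgeR's quasi-likelihood test at a Benjamini-Hochberg adjusted p under 0.05. A call of at least 2-fold was reached by 7 members upward and 1 downward, against 18.4% and 14.2% of all tested genes (32.5% in either direction). The median log2 fold change of the members was 2.78, beside -0.01 over all tested genes and 0.32 over 97 other tested pathway genes. The members were chosen with earlier results of these data known, so these counts and medians are a description only. In LNCaP every member stood under 27 CPM in both libraries. In LN-35, *BMPR1B*, *ID3* and *ID1* ranged from 84.9 to 159 CPM.

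**Figure D1:**
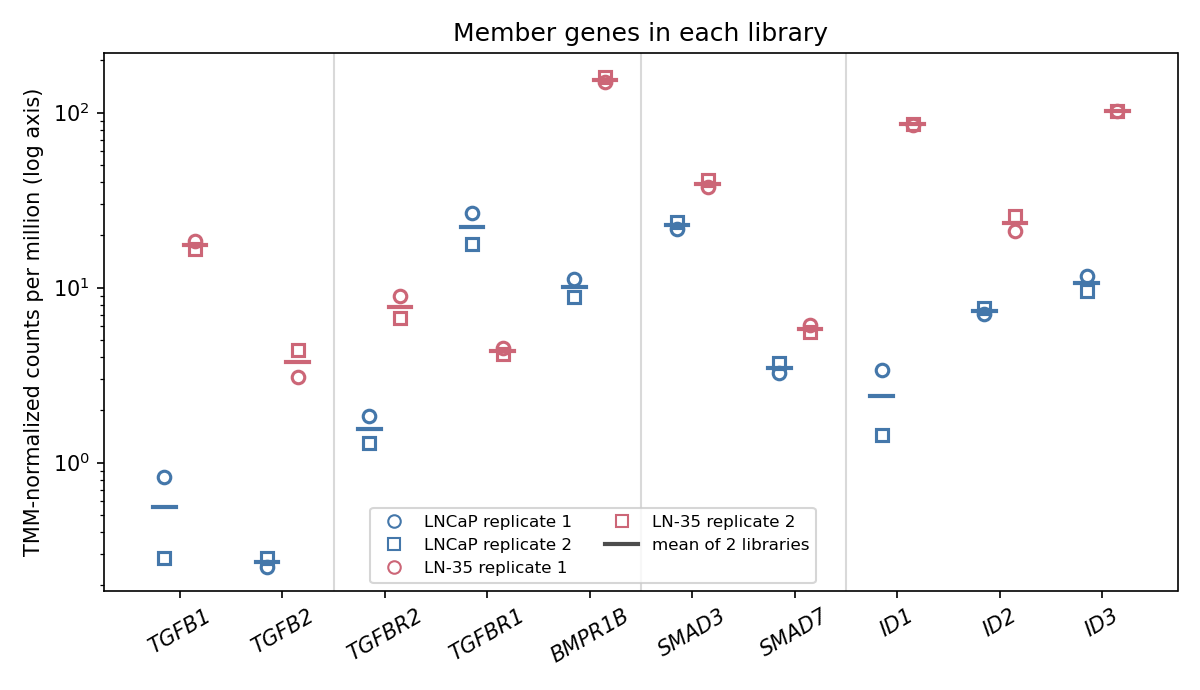
TMM-normalized counts per 1e6 counts on a log axis for the 10 member genes in each of the 4 libraries. Open symbols are libraries, bars are means of 2 libraries, and grey lines part ligands, receptors, SMADs and *ID* genes. The libraries of the lines did not overlap for any member, and *TGFBR1* is the gene with LNCaP above LN-35. How many of all tested genes show no overlap is not given here, and 71.8% of them were called.

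Upstream DNA is shown for the members with the largest rises, *ID1* and *TGFB1*, and for *ID4*, the remaining member of the *ID* family, since these genes moved in the same direction. Sequences are from RefSeq on GRCh38.p14 and run toward the transcription start. Bases that a GENCODE 29 exon covers were left off. Windows for *ID2* and *ID3* are not printed because exons of other transcripts covered 229 and 250 of their 250 bases. Capitals mark matches to any of 4 letter patterns searched on both strands. Motif GGCGCC is part of known BMP response elements. Motif CAGAC is a box to which SMADs bind. Motif CANNTG is the E-box of helix-loop-helix factors. Motif TATAAA is a core promoter element. The *ID1* window is chr20:31605039-31605282 (plus strand), the *ID4* window chr6:19837120-19837369 (plus strand) and the *TGFB1* window chr19:41353923-41354168 (minus strand).
ID1: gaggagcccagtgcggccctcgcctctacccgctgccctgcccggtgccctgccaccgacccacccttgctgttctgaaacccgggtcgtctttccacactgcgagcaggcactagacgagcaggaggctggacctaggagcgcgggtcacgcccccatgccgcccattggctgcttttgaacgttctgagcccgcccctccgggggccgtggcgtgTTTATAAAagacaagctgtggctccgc
ID4: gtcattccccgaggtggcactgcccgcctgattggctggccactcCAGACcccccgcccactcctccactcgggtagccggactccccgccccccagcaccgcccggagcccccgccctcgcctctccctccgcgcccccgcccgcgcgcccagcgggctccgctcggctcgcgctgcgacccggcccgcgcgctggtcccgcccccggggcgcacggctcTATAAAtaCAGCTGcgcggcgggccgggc
TGFB1: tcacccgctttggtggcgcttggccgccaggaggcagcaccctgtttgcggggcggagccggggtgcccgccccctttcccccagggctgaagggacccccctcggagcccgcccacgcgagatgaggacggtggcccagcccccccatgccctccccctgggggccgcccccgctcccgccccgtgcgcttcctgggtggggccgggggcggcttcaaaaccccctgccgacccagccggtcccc
*ID1* and *ID4* both carry TATAAA, with its first base at -31 and -29 relative to the RefSeq start. In *ID1* the reverse complement overlaps it and starts at -33. *ID4* also holds CAGAC at -205 and CANNTG at -21, whereas *ID1* and *TGFB1* hold neither in these windows. GGCGCC occurred in none of them. Among 35116 RefSeq promoters, the 250 upstream bases held TATAAA in 10.7%, GGCGCC in 16.4%, CAGAC in 38% and CANNTG in 61.8%. Over the full 250 bases, *ID2* held 1 CANNTG and *ID3* held 1 CAGAC. These matches describe letters only.

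The *ID* genes rose together in LN-35. *ID1* (ENSG00000125968, chromosome 20, 31605283 to 31606515) had 53 and 20 counts in LNCaP, or 3.36 and 1.43 CPM, and 1019 and 1073 counts in LN-35, or 84.9 and 86.4 CPM. Both LN-35 libraries lay far above the LNCaP libraries, which differed from each other by 2.35-fold. The increase was 34.8-fold, or 5.12 on the log2 scale (SE 0.18, edgeR adjusted p = 4.31e-13), and the value became 5.88 without LNCaP replicate 1 and 4.66 without LNCaP replicate 2. *ID3* (ENSG00000117318, chromosome 1, 23557918 to 23559794) had 11.6 and 9.53 CPM in LNCaP against 102.0 and 102.4 CPM in LN-35. Its LN-35 libraries were nearly equal, and the groups were wide apart. This was a 9.62-fold increase (log2 fold change 3.27 with SE 0.11, edgeR adjusted p = 5.29e-18).

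*ID2* (ENSG00000115738, chromosome 2, 8678845 to 8684453) showed the smallest change of the family. Its levels were 7.04 and 7.67 CPM in LNCaP against 21.1 and 25.7 CPM in LN-35, so the groups did not overlap. The increase was 3.18-fold (log2 fold change 1.67 with SE 0.17, edgeR adjusted p = 4.00e-09). An antisense gene, *ID2-AS1*, shares 38 exonic bases with *ID2*, and counting by strand is not stated. *ID4*, which is not a member and was tested in the same fit, had 4.06 and 4.73 CPM in LNCaP against 65.8 and 57.5 CPM in LN-35, a 14.0-fold rise (log2 value 3.81, SE 0.14, edgeR adjusted p = 4.25e-17).

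Between genes, levels were compared per kilobase of exon, with the length taken over all exons annotated for a gene in any transcript. The 4 *ID* genes summed to 14.12 and 11.97 CPM per kb in the LNCaP libraries and to 163.3 and 163.2 CPM per kb in the LN-35 libraries. Their proportions also shifted. *ID3* was the most abundant in LNCaP, with 45.8% and 44.3% of the sum, and *ID1* was the most abundant in LN-35, with 42.2% and 42.9%. *ID1* held 19.3% and 9.72% in LNCaP. *ID2* went from 22.6% and 29.1% to 5.85% and 7.13%, and *ID4* held between 12.3% and 17.2% in each of the 4 libraries. The ratio of *ID1* to *ID3* per kilobase was 0.422 and 0.219 in LNCaP and 1.21 and 1.23 in LN-35. In CPM *ID3* was above *ID1* in LN-35 as well, at 102.0 and 102.4 against 84.9 and 86.4 CPM. Their order in LN-35 thus depends on the exon lengths used, 1233 bases for *ID1* and 1797 bases for *ID3*.

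**Figure D2:**
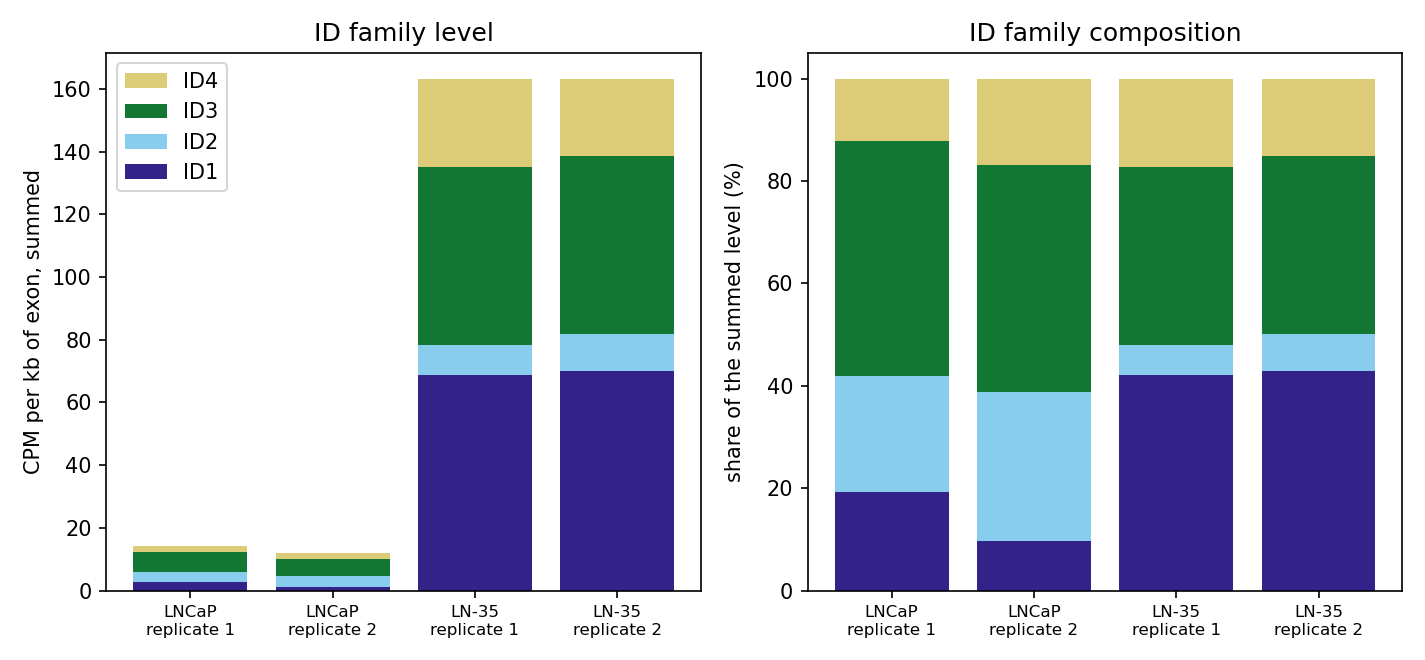
Levels of *ID1* to *ID4* in each library in CPM per kb of exon (left) and as shares of their sum in percent (right). The sum was 11.97 to 14.12 CPM per kb in LNCaP and 163 in LN-35, where *ID1* took the largest share per kb. In CPM *ID3* was above *ID1* there.

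E proteins, the partners that ID proteins capture, were higher as well. *TCF4* had 1.90 and 1.79 CPM in LNCaP against 11.4 and 13.1 CPM in LN-35, a 6.6-fold increase (edgeR adjusted p = 1.24e-09). *TCF3* and *TCF12* were already abundant in LNCaP and rose by less, 1.49-fold and 1.41-fold (edgeR adjusted p = 8.51e-06 and 6.54e-06). In CPM per kb, *TCF3* went from 6.82 to 10.2 and *TCF12* from 9.40 to 13.3, while *TCF4* reached 0.441. The annotated exons of *TCF4* cover 27828 bases, against 6080 for *TCF3* and 9446 for *TCF12*, which widens the gap per kb. In CPM *TCF4* reached a mean of 12.3 in LN-35, against 61.7 for *TCF3* and 125 for *TCF12*. All 7 genes of the *ID* and E protein list were thus higher, beside 36.4% of all tested genes, with a median log2 fold change of 2.72.

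Ligand genes of the TGF-beta class were near the limit of measurement in LNCaP and higher in LN-35. *TGFB1* (ENSG00000105329, chromosome 19, 41301587 to 41353911) had 13 and 4 counts in LNCaP, or 0.825 and 0.287 CPM, and 222 and 206 counts in LN-35, or 18.5 and 16.6 CPM. The groups were far apart, and the LNCaP libraries differed by 2.88-fold from each other. *TGFB1* was 30.3-fold higher (log2 fold change 4.92 with SE 0.31, edgeR adjusted p = 8.04e-13). The log2 fold change was 5.88 without LNCaP replicate 1 and 4.39 without LNCaP replicate 2. Its exons share 1723 bases with *HNRNPUL1* on the opposite strand. That gene was at 141 ± 4.46 CPM in LNCaP against 286 ± 8.38 CPM in LN-35 (SD, n = 2 per group), a 2.03-fold difference, and its part in the *TGFB1* value was not tested.

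*TGFB2* (ENSG00000092969, chromosome 1, 218346235 to 218444619) had 4 and 4 counts in LNCaP, or 0.254 and 0.287 CPM, and 37 and 55 counts in LN-35, or 3.08 and 4.43 CPM. The LN-35 libraries were above both LNCaP libraries, and *TGFB2* passed the filter only through LN-35. It was 13.5-fold higher, with a 95% interval on the log2 scale of 2.60 to 4.92 (log2 fold change 3.76 with SE 0.56, edgeR adjusted p = 2.04e-06). The remaining isoform gene, *TGFB3*, named after its values were seen, had 0.571 and 0.860 CPM in LNCaP against 5.66 and 6.36 CPM in LN-35 (8.38-fold higher, edgeR adjusted p = 3.15e-07).

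Genes that store or release TGF-beta were mixed. Latent TGF-beta is held by LTBP proteins and freed by thrombospondin or integrins. The list of TGF-beta ligands, latency proteins and activators had 13 tested genes, among them *TGFB1*, *TGFB2* and *TGFB3*, given above. Of these 13, 9 (69.2%) were higher, 3 (23.1%) lower and 1 not called (median log2 fold change 1.35). Of all tested genes 36.4% were higher and 35.5% lower. In the list 3 genes entered the test only through LN-35 and 1 only through LNCaP. *THBS1*, encoding the activator thrombospondin, had 26.0 and 23.2 CPM in LNCaP against 356 and 382 CPM in LN-35, a 14.9-fold increase. *LTBP4* rose 2.54-fold, whereas *LTBP3* and *LTBP2* were 2.21-fold and 2.33-fold lower. *LRRC32*, which presents latent TGF-beta at the cell surface, went from 38 counts over both LNCaP libraries to 1 count in LN-35, 31.2-fold lower (95% counting interval 5.28 to 1266). It was the gene that entered only through LNCaP.

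The receptor genes for TGF-beta moved apart. *TGFBR2* (ENSG00000163513, chromosome 3, 30606502 to 30694142), the type II receptor that binds the ligand, had 1.84 and 1.29 CPM in LNCaP against 8.91 and 6.68 CPM in LN-35. The groups did not overlap, and the gene was 4.92-fold higher in LN-35 (log2 fold change 2.30 with SE 0.32, edgeR adjusted p = 9.82e-07). *TGFBR1* (ENSG00000106799, chromosome 9, 99104038 to 99154192), the type I receptor that phosphorylates SMAD2 and SMAD3, had 421 and 248 counts in LNCaP, or 26.7 and 17.8 CPM, and 54 and 52 counts in LN-35, or 4.498 and 4.18 CPM. It was the sole member with both LN-35 libraries below both LNCaP libraries, and its LNCaP libraries differed by 1.5-fold. The decrease was 5.13-fold (log2 fold change -2.36 with SE 0.21, edgeR adjusted p = 2.12e-09).

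Within each library the balance of these receptors was reversed between the lines. Per kilobase of exon, *TGFBR1* exceeded *TGFBR2* by 9.98-fold and 9.47-fold in the LNCaP libraries. In LN-35 *TGFBR2* exceeded *TGFBR1* by 2.88-fold and 2.32-fold. *TGFBR3*, the co-receptor betaglycan, fell with *TGFBR1*, from 39.5 and 25.2 CPM to 4.41 and 6.44 CPM (5.96-fold lower, edgeR adjusted p = 7.75e-06).

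*BMPR1B* (ENSG00000138696, chromosome 4, 94757968 to 95158448), a type I receptor for BMPs, had the smallest adjusted p of the members. It had 177 and 124 counts in LNCaP, or 11.2 and 8.89 CPM, and 1799 and 1973 counts in LN-35, or 150 and 159 CPM. Both LN-35 libraries were far above both LNCaP libraries. The increase was 15.2-fold (log2 fold change 3.93 with SE 0.11, edgeR adjusted p = 9.82e-20). The related receptor gene *BMPR1A* rose less, from 39.5 and 35.4 CPM to 72.2 and 70.7 CPM (1.91-fold, edgeR adjusted p = 4.59e-09). Per kilobase, *BMPR1A* exceeded *BMPR1B* by 1.94-fold and 2.2-fold in the LNCaP libraries, while *BMPR1B* exceeded *BMPR1A* by 3.75-fold and 4.06-fold in LN-35.

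**Figure D3:**
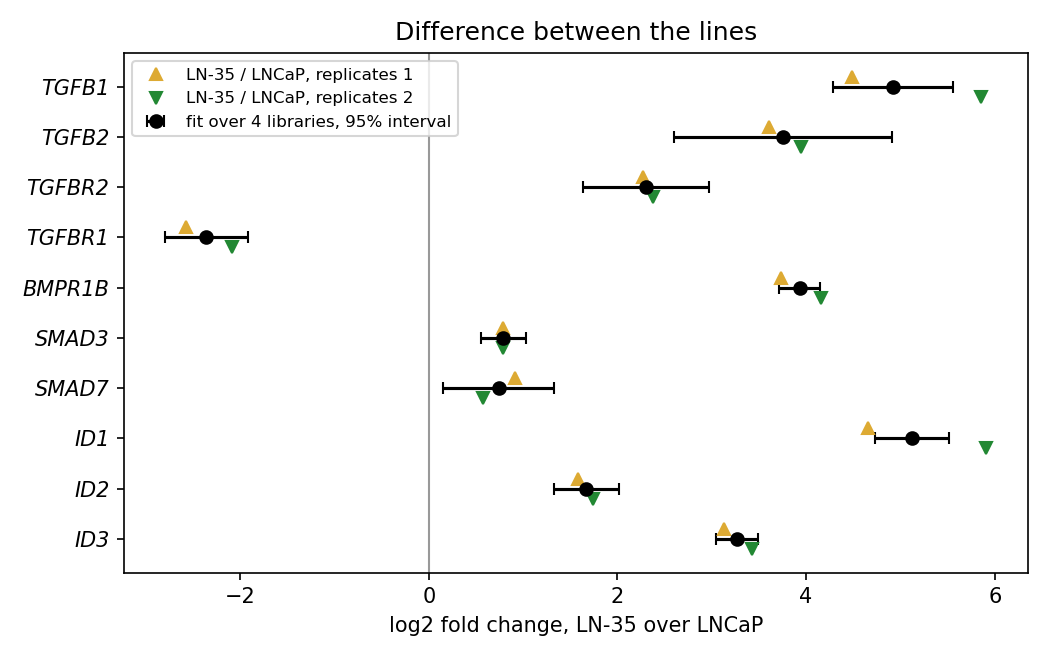
Log2 fold changes of LN-35 over LNCaP for the 10 members. Black points are estimates of edgeR's fit with 95% intervals, and triangles are log2 ratios of the libraries numbered 1 and of the libraries numbered 2. The intervals lie above 0 for 9 members and below 0 for *TGFBR1*, and the triangles of *TGFB1* and *ID1* spread the most, from 4.49 to 5.85 and from 4.66 to 5.91.

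Of 6 tested type I receptor genes, 4 (66.7%) were higher and 2 (33.3%) lower, beside 36.4% and 35.5% of all tested genes. The activin receptor gene *ACVR1B* was 1.28-fold higher. *ACVR1C*, another activin-class receptor gene, had 5 and 8 counts in LNCaP and 22 and 23 counts in LN-35, or 0.317 and 0.574 CPM against 1.83 and 1.85 CPM (4.12-fold higher). It entered the test only through LN-35, and its call was lost without LNCaP replicate 1 (edgeR adjusted p = 0.0663). *ACVR1*, a type I receptor for BMPs and activins, had a log2 fold change of -0.36, SE 0.16, at an edgeR adjusted p = 0.0497, close to the threshold. With the replicate block it was 0.0624, with DESeq2 size factors 0.0605, with robust=FALSE 0.059, without mitochondrially encoded genes 0.0534 and with DESeq2 0.24. Leaving out 1 library gave 0.353 without LNCaP replicate 1, 0.153 without LN-35 replicate 1 and 0.113 without LN-35 replicate 2. *ACVRL1* had 2 to 10 counts per library and was not tested.

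Among type II receptors, *ACVR2B* was 1.52-fold higher (edgeR adjusted p = 0.000299). *BMPR2*, the main type II receptor for BMPs, stood at 123 ± 9.43 CPM in LNCaP against 131 ± 7.64 CPM in LN-35 (SD, n = 2 per group) and was not called (log2 fold change 0.09, edgeR adjusted p = 0.328). *ACVR2A* had a log2 fold change of -0.15 and was not called either (edgeR adjusted p = 0.377). *AMHR2* had 2 to 8 counts per library and was not tested.

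Among the 10 members, *SMAD3* and *SMAD7* had the smallest fold changes. *SMAD3* (ENSG00000166949, chromosome 15, 67063763 to 67195195), a carrier of TGF-beta and activin signals, had 21.7 and 23.8 CPM in LNCaP against 37.4 and 41.1 CPM in LN-35. The libraries separated by line, and *SMAD3* was 1.73-fold higher (log2 fold change 0.79 with SE 0.12, edgeR adjusted p = 1.82e-06). An antisense gene shares 182 bases of its exons. *SMAD7* (ENSG00000101665, chromosome 18, 48919853 to 48952052), an inhibitory SMAD induced by TGF-beta as feedback, had 51 and 52 counts in LNCaP, or 3.24 and 3.73 CPM, and 73 and 69 counts in LN-35, or 6.08 and 5.55 CPM. Its groups did not overlap and the increase was 1.67-fold, but it was the least certain of the 10 (log2 fold change 0.74 with SE 0.28, edgeR adjusted p = 0.0229). The call was lost with DESeq2 (adjusted p = 0.125). It was also lost when LNCaP replicate 1 was left out (0.094), and when either LN-35 library was, replicate 1 (0.117) or replicate 2 (0.0576).

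Of all 8 SMAD genes, 4 were higher, 1 was lower and 3 were not called, and none changed by 2-fold. These are 50% higher and 12.5% lower, beside 36.4% and 35.5% of all tested genes. *SMAD4*, the common partner, was at 61.9 ± 0.71 CPM in LNCaP against 97.9 ± 3.14 CPM in LN-35 (log2 fold change 0.66 with SE 0.08, edgeR adjusted p = 1.31e-07). *SMAD2* had a log2 fold change of -0.22 (edgeR adjusted p = 0.0134), which was not called with DESeq2 (0.0793) or without LN-35 replicate 1 (0.085) or replicate 2 (0.0876). The BMP-directed *SMAD1* and *SMAD5* had log2 fold changes of -0.13 and -0.12 and were not called (edgeR adjusted p = 0.198 and 0.191). With library totals alone their adjusted p was 0.0419 and 0.0336, and without LNCaP replicate 2 that of *SMAD5* was 0.00871. *SMAD9* was called at 0.39 (edgeR adjusted p = 0.0235), but not with library totals alone (0.0627), with DESeq2 (0.125), without LNCaP replicate 1 (0.162) or without LN-35 replicate 2 (0.364). *SMAD6*, the other inhibitory SMAD, was at 2.00 ± 0.495 and 1.95 ± 0.879 CPM (edgeR adjusted p = 0.949).

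Per kilobase of exon, the members in LNCaP were ordered *ID3* (5.88 CPM per kb), *ID2* (3.34), *TGFBR1* (3.25), *SMAD3* (2.50), *ID1* (1.95), *BMPR1B* (1.59), *SMAD7* (0.692), *TGFBR2* (0.333), *TGFB1* (0.172) and *TGFB2* (0.0525). From *ID2* down to *BMPR1B*, each gene overlapped its neighbor in the order between libraries. In LN-35 the order was *ID1* (69.4 CPM per kb), *ID3* (56.9), *BMPR1B* (24.4), *ID2* (10.6), *TGFB1* (5.42), *SMAD3* (4.31), *TGFBR2* (1.66), *SMAD7* (1.16), *TGFB2* (0.729) and *TGFBR1* (0.634). Only *TGFB2* and *TGFBR1* overlapped there, and in CPM *ID3* was above *ID1*. *TGFBR1* thus stood at rank 3 in LNCaP and at rank 10 in LN-35.

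For each member with a mean of at least 10 CPM, the gene with the most similar profile was sought among 10004 genes, as the smallest Euclidean distance between mean-centered log2 CPM over 4 libraries. The nearest gene was *FAXDC2* for *ID1* (distance 0.0486), *SPTBN4* for *ID3* (0.0771), *OAT* for *ID2* (0.0881), *GALC* for *BMPR1B* (0.0961), *BUD31* for *SMAD3* (0.0402) and *FNDC10* for *TGFBR1* (0.182). The 4 points share 2 lines, and the distances are given as a description.

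The wider pathway was described with 12 lists by role, which held 138 genes including the members. Of the other 128 genes, 97 were tested, and 47 were higher, 30 lower and 20 not called, with a median log2 fold change of 0.32. These are 48.5% higher and 30.9% lower, beside 36.4% and 35.5% of all tested genes. The 31 others had too few counts, and 16 of the tested genes passed the filter only through LN-35 and 8 only through LNCaP, so that their difference was partly set by the filter.

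**Figure D4:**
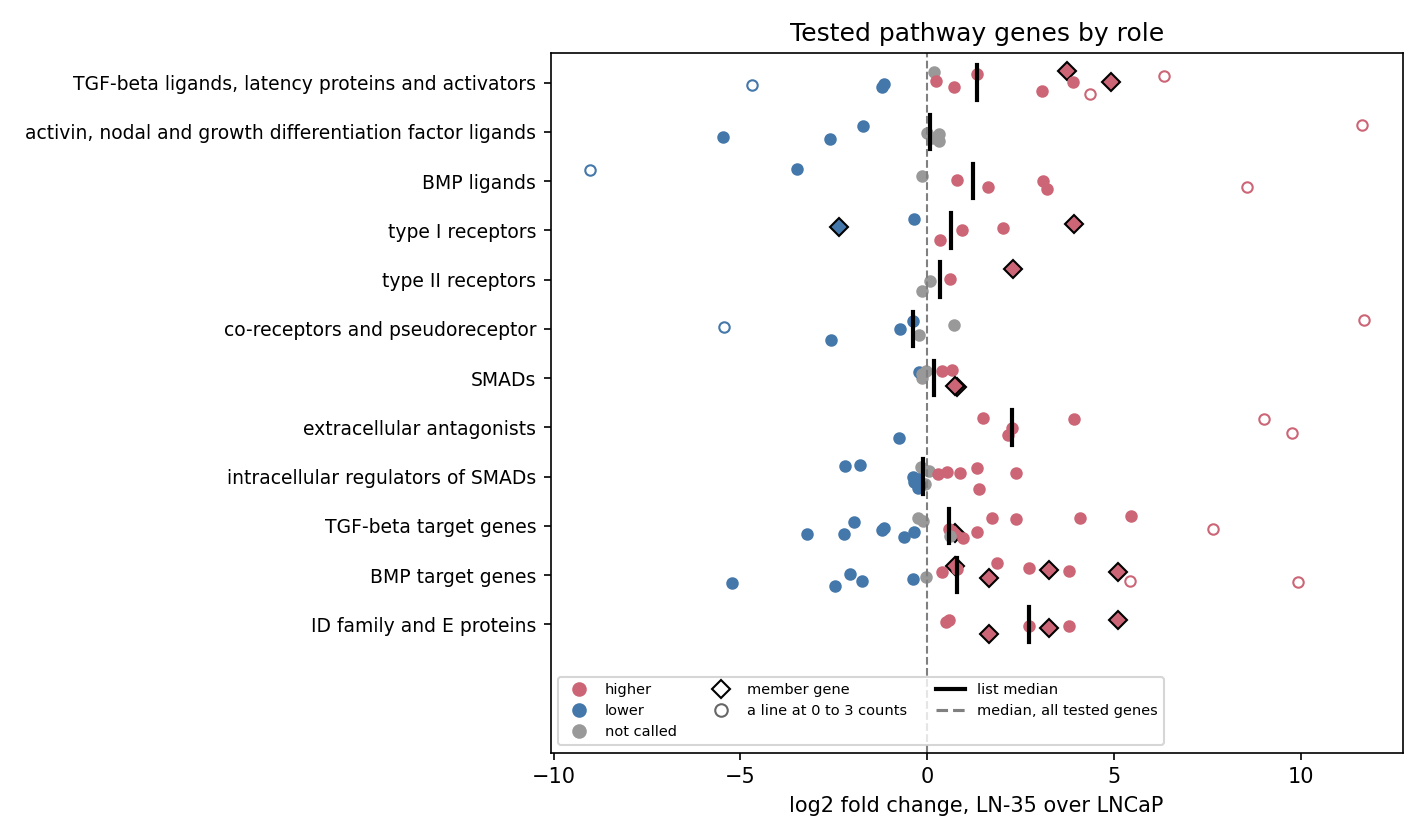
Log2 fold changes of LN-35 over LNCaP for the tested genes of 12 lists by role. Diamonds are member genes, colors give the call, bars are list medians, the dashed line is the median of all tested genes (-0.01), and open circles are genes with 0 to 3 counts in a line, whose fitted values depend on the prior count. Each gene of the *ID* and E protein list lies above 0, while SMADs lie close to 0.

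Ligands of the activin, growth differentiation factor and BMP lists showed several large differences in both directions. *INHBA*, whose product forms activin A, had 1 and 0 counts in LNCaP and 1644 and 1689 counts in LN-35, or 137 and 136 CPM, 4053-fold higher (95% counting interval 727 to 160100). *INHBB*, which encodes the activin B subunit, moved the other way, from 7.62 and 7.67 CPM to 0.2499 and 0.0805 CPM (44.2-fold lower). Its log2 fold change was -5.47, or -6.41 without LN-35 replicate 1 and -4.88 without LN-35 replicate 2. *INHBA* entered the test only through LN-35 and *INHBB* only through LNCaP. *GDF15*, a stress-induced growth differentiation factor and not an activin or BMP, was the most abundant of the listed ligands in CPM. It was at 2453 ± 141 in LNCaP and 750.4 ± 12.7 in LN-35 (SD, n = 2 per group), 3.27-fold lower. *GDF9* was 6.03-fold lower. In this list of 8 tested ligands 1 was higher, 3 were lower and 4 were not called (median log2 fold change 0.06). These are 12.5% higher and 37.5% lower, beside 36.4% and 35.5% of all tested genes.

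Among 8 tested BMP ligands, 5 were higher, 2 lower and 1 was not called (median log2 fold change 1.23), and 3 were higher with DESeq2 or without LN-35 replicate 1. *BMP2* had 1 and 0 counts in LNCaP and 187 and 210 counts in LN-35, or 15.6 and 16.9 CPM, 483-fold higher (counting interval 86.1 to 19110). *BMP4* reached only 1.08 and 1.37 CPM in LN-35 (log2 fold change 3.11, or 3.92 without LNCaP replicate 1), and *AMH* 11.2 and 7.40 CPM (log2 fold change 3.20, or 3.99 without LNCaP replicate 1). *BMP7* had 87 and 58 counts in LNCaP and none in LN-35, at least 39.8-fold lower against a floor of 3 counts over both libraries. *BMP6* was 11.3-fold lower (log2 fold change -3.50, or -4.32 without LN-35 replicate 2 and -2.98 without LN-35 replicate 1). In this list 2 genes passed the filter only through LN-35 and 2 only through LNCaP. The called shares were 62.5% higher and 25% lower, beside 36.4% and 35.5% of all tested genes.

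Extracellular antagonists were mostly higher among those tested. Of 7, 6 (85.7%) were higher and 1 (14.3%) lower, beside 36.4% and 35.5% of all tested genes. The median log2 fold change was 2.28, and 3 passed the filter only through LN-35. *CRIM1*, which binds BMPs at the cell surface, rose from 10.2 and 10.1 to 48.3 and 50.7 CPM, and the activin-binding *FSTL3* rose 2.81-fold. *FST*, the gene of the activin antagonist follistatin, named after its values were seen, had no counts in LNCaP and reached 4.58 and 4.99 CPM in LN-35, which is at least 47.4-fold higher. *DCN*, encoding the TGF-beta-binding proteoglycan decorin and also a fibroblast marker, had no counts in LNCaP and reached 6.497 and 9.58 CPM in LN-35, which is at least 79.8-fold higher. Of the 4 fibroblast markers tested, 3 (75%) were higher, beside 36.4% of all tested genes, and 3 passed the filter only through LN-35. The sums and the near-zero markers are given above, and the part of fibroblast markers in these values was not tested. *TWSG1* was 1.67-fold lower.

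Of 7 tested co-receptor genes, 4 (57.1%) fell and 1 (14.3%) rose, beside 35.5% and 36.4% of all tested genes (median log2 fold change -0.37). *NEO1* was 1.66-fold lower, and *RGMA*, a BMP co-receptor, went from 64 counts over both LNCaP libraries to 1 in LN-35 (ratio 52.6, counting interval 9.12 to 2111). *CFC1*, a co-receptor for nodal, went from 1 count to 3468 counts (ratio 4217, counting interval 756 to 166600). It entered the test only through LN-35, and *RGMA* only through LNCaP. *CFC1* has a near-identical copy in the genome, and its count is uncertain.

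Of 17 tested intracellular regulators of SMADs, 6 were higher, 7 lower and 4 not called, which is 35.3% and 41.2% beside 36.4% and 35.5% of all tested genes (median log2 fold change -0.10, or 3 lower with DESeq2 and 4 without LN-35 replicate 1). *PMEPA1*, a target gene whose product restrains SMAD2 and SMAD3, rose from 89.3 and 79.7 to 436 and 452 CPM, 5.25-fold (edgeR adjusted p = 1.94e-18). *SKIL*, a SMAD corepressor, and *SMURF1*, a ubiquitin ligase for SMADs and receptors, rose 2.53-fold and 2.61-fold. *NEDD4L*, another ubiquitin ligase for SMADs, was 3.47-fold lower, and *STRAP* and *TGIF1* were 1.31-fold and 1.28-fold lower.

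Target genes of the pathways did not share a direction. Of 19 tested TGF-beta targets, 9 (47.4%) were higher and 7 (36.8%) lower (median log2 fold change 0.58). Of all tested genes 36.4% were higher and 35.5% lower. *ANGPTL4* went from 3 counts over both LNCaP libraries to 542 in LN-35 (ratio 220, counting interval 74.8 to 1069). It entered the test only through LN-35. *BHLHE40* and *CDKN1A* were 4.65-fold and 1.54-fold lower, as were *LTBP3* and *LTBP2*, given above. Of 17 tested BMP targets, 11 (64.7%) were higher and 5 (29.4%) lower (median log2 fold change 0.80), and the 4 *ID* genes are among the 11. The homeobox gene *MSX1* fell from 11.2 and 12.3 to 3.67 and 1.93 CPM, and *MSX2* from 8.63 and 7.17 to 0 and 0.402 CPM (log2 fold change -5.21, but -4.26 and -9.78 without LN-35 replicate 1 or 2). *MSX2* entered the test only through LNCaP. *GATA2* was 5.55-fold lower.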

How the data were processed

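RNA-seq was performed on LNCaP (2 libraries) and LN-35 cells (2 libraries). Per the labels, TRIzol served for extraction and the NEBNext Ultra RNA kit was used for the libraries. The authors deposited 1 table of estimated counts per gene, not scaled between libraries. The submitters' notes list hg38 as build, with featureCounts 1.5.0-p3 and HISAT2 2.0.5 as tools. Between 11.49% and 12% of values per library were not whole, and for neither the step that made them nor the use of strand was a source found here. The members' values were whole in each library.

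Counts were rounded, filtered with filterByExpr (minimum count 10) and TMM-scaled. Differences between lines were tested two-sided with the quasi-likelihood method of edgeR (design ~ group, robust=TRUE), adjusted over 13744 genes. Fold changes are given for LN-35 relative to LNCaP. The biological coefficient of variation was 6.67%. The labels give repeat 1 and repeat 2 under a batch tag, without saying whether same-numbered libraries were processed together. Same-numbered deviations correlated at 0.00839 across genes, and a fit with the replicate block was an alternative. Counting intervals are exact (Clopper-Pearson, 95%) and cover counting error only, since reads carried no molecular identifiers.

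Members, lists and tests were chosen with earlier results of these data known. All members were named, and in each list up to 3 called genes per direction with the smallest adjusted p, plus the other receptors, SMADs, *ID4* and E proteins. Symbols matched 20328 of 20332 identifiers, and positions are from GENCODE 29 (GRCh38). Models were fitted in R 4.3.3 with limma 3.58.1, edgeR 4.0.16 and DESeq2 1.42.0. Annotation and plots used Python 3.11.15 with numpy 2.4.6, matplotlib 3.10.9 and pandas 2.3.3.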

Additional observations from a re-analysis of the deposited data

How the results depend on the processing

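The tests were repeated under 11 alternatives, namely the replicate block, DESeq2 size factors, library totals alone, DESeq2, no filter on low counts, robust=FALSE, no mitochondrially encoded genes, and each library left out in turn. The direction of each member held under all of them, and the calls held except that of *SMAD7*. With the replicate block 10 members and 77 other pathway genes were called, as without it, and among the genes named the block changed no call other than that of *ACVR1* (adjusted p = 0.0624). Over all alternatives 9 or 10 members were called, 68 to 83 other pathway genes, and 8591 to 10301 of all genes. Leaving out 1 library turned directions for *SMAD5* (log2 fold change -0.25 to 2e-04, above 0 without LNCaP replicate 1) and *SMAD6* (-0.58 to 0.37, with 0.24 without LNCaP replicate 1 and 0.37 without LN-35 replicate 1), and the cause was not tested. The SMAD list had 2 genes higher with DESeq2, without LNCaP replicate 1 or without LN-35 replicate 2, and 0 to 3 lower over the alternatives. The median log2 fold change of all tested genes was -0.08 with library totals alone. Fitted log2 values of genes with few counts in a line moved by more than 1.5-fold when a library was left out, from 10.87 to 13.77 for *INHBA*, 10.93 to 13.83 for *CFC1*, 7.80 to 10.70 for *BMP2*, -7.92 to -4.60 for *RGMA* and -7.16 to -3.83 for *LRRC32*. *ANGPTL4* was at 7.17 without LNCaP replicate 1 and at 8.25 without LNCaP replicate 2. Depth limits the genes with few counts in a line, among them the members *TGFB1* and *TGFB2*, each with 4 counts in LNCaP replicate 2.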
